A study of Homo sapiens with 10 samples.

Results

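The zinc finger gene clusters of chromosome 19 are 8 stretches in which genes for zinc finger proteins lie side by side. They were taken as hg19 chr19:9200000-10000000, chr19:11600000-12800000, chr19:19700000-24400000, chr19:35100000-35500000, chr19:36600000-38400000, chr19:44300000-45000000, chr19:52300000-54000000 and chr19:56100000-59100000. They are called here clusters 1 to 8, in that order. Together they span 14.3 Mb, which is 0.485% of the numbered chromosomes and X. Every CUT&RUN peak that shared at least 1 bp with a cluster was a member, which gave 9541 of the 543439 peaks of the 8 lists used. Overlapping BRD9 peaks were merged across lists into regions, of which 3480 of 119939 lay in the clusters. The clusters were selected on measured values: earlier results of these data had shown many BRD9 peaks off SMARCB1 sites on chromosome 19. Peak number, covered length, calls and the share at SMARCB1 sites are therefore described without a test.

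All groups used G401, a rhabdoid tumour line labelled SMARCB1(-/-), in which doxycycline induced a transgene. The control cells expressed green fluorescent protein (GFP) and the others expressed SMARCB1. BRD9 was profiled in 3 libraries of each, and SMARCB1 in 2 libraries of the SMARCB1-induced cells. The promoter of the transgenes, the induction time and whether a group is 1 clone are not given in the sources used here. Of the 10 samples, SMARCB1 in GFP-induced cells and an IgG sample were not analysed here. The labels do not say that replicates came from separate cultures, so p-values may measure technical spread alone. BRD9 libraries had 10.1 to 13.9 M reads and SMARCB1 libraries 59.7 and 64.2 M. A median BRD9 peak in the clusters held 18 to 25 reads.

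KRAB zinc finger genes arose by repeated tandem duplication, which is why they stand in clusters. Their proteins bind DNA through arrays of fingers, many of them at transposable elements, and recruit a corepressor that leads to a repressive histone mark. The clusters carry that mark too, over the ends of the genes. SWI/SNF complexes move nucleosomes. SMARCB1 is a core subunit of the canonical forms and is lost in rhabdoid tumours, and BRD9 is a bromodomain subunit that defines a form without SMARCB1. In RefSeq's gene order (GRCh38.p14), 266 of the 574 protein-coding genes with a zinc finger symbol (46.3%) are on chromosome 19. Genes were taken by the start of the symbol, such as ZNF or ZFP, which does not show whether a gene is of the KRAB type. Runs broken by no other protein-coding gene include 24 genes from ZNF627 to ZNF791, 27 from ZNF737 to ZNF681, 24 from ZNF565 to ZNF793 and 20 from ZNF283 to ZNF180. An hg19 gene annotation was not used here, so peaks are given by position and not assigned to genes.

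BRD9 peaks were dense in the clusters of GFP-induced cells and fewer in SMARCB1-induced cells. The clusters held 2558, 1571 and 2108 peaks in the lists of GFP-induced cells, but 1267, 797 and 825 in those of SMARCB1-induced cells. All 3 of the latter lay below all 3 of the former. On average there were 2079 ± 494 against 963 ± 264 peaks (SD, n = 3 each), a log2 difference of -1.11, or 2.16 times as many in control cells. Per Mb of cluster this was 145 ± 34.6 against 67.3 ± 18.4 peaks (SD, n = 3 each). On the other chromosomes the density was 11.9 ± 1.76 and 13.4 ± 1.01 peaks per Mb (SD, n = 3 each), so the clusters stood well above the rest of the genome in both groups. As the libraries are of bulk cells, fewer cells with BRD9 at a site and less BRD9 per cell cannot be told apart.

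Lists differ in length, so the cluster peaks were also taken as a share of each list's peaks on the numbered chromosomes and X. The share was 5.85%, 4.74% and 5.70% in GFP-induced cells and 2.85%, 2.09% and 2.05% in SMARCB1-induced cells. The groups did not overlap, and the means differed by -3.10 percentage points. Elsewhere on chromosome 19 the mean number was 1574 ± 224 against 1191 ± 6.51 peaks (SD, n = 3 each; log2 difference -0.40). On the other chromosomes it was 34278 ± 5082 against 38788 ± 2927 (SD, n = 3 each; log2 difference 0.18). The number of cluster peaks was thus lower in SMARCB1-induced cells while that of the other chromosomes was not.

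**Figure D1:**
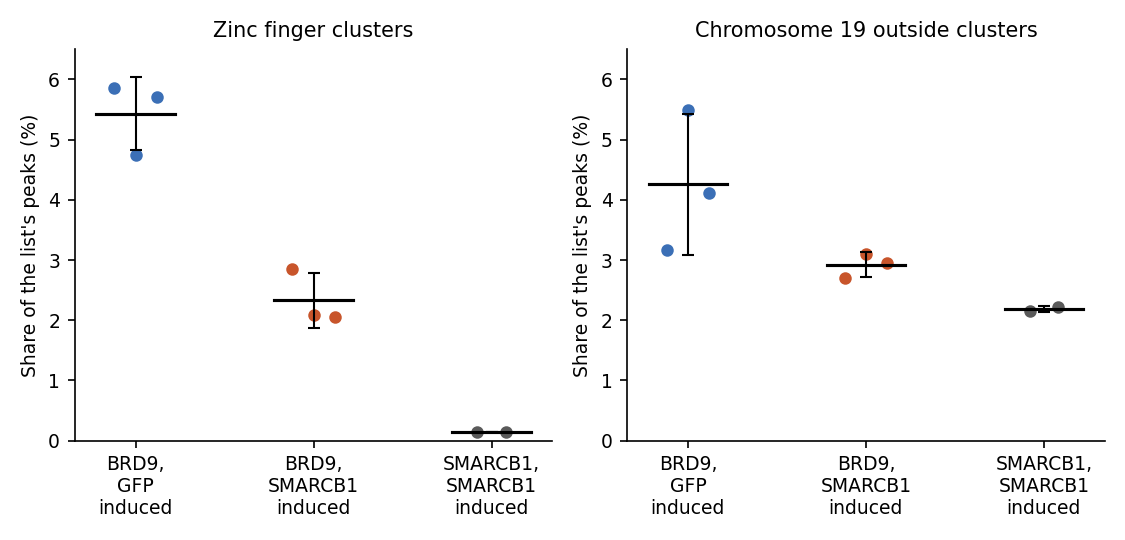
Share of each list's peaks (percent, y axis) in the clusters (left) and on the rest of chromosome 19 (right), by antibody and induced protein (x axis). Points are lists, horizontal lines are means and bars are SD. In the clusters the BRD9 lists of GFP-induced cells sit between 4.74% and 5.85% and those of SMARCB1-induced cells between 2.05% and 2.85%, with SMARCB1 itself at 0.137% and 0.144%.

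The base pairs covered were lower as well, with more spread. Peaks covered 2393, 1021 and 1749 kb of the clusters in GFP-induced cells, or 16.7%, 7.14% and 12.2% of their length. In SMARCB1-induced cells they covered 1137, 547 and 536 kb, or 7.95%, 3.83% and 3.75%. The means differed by -1.22 on the log2 scale, but GFP replicate 2 covered less than SMARCB1 replicate 1, so the groups overlapped. The union over the 3 lists was 3246 kb and 1470 kb. Of the latter, 80.3% lay within the former, and of the former, 36.4% lay within the latter. The base pairs covered in SMARCB1-induced cells were thus mostly ones covered in control cells too.

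The SMARCB1 protein was sparse in the clusters. Its lists had 183 and 232 cluster peaks, a mean of 14.5 ± 2.42 per Mb (SD, n = 2). The density was 49.8 ± 6.75 per Mb on the other chromosomes (SD, n = 2), and 64.0 and 80.4 per Mb on the rest of chromosome 19. Regions with a SMARCB1 peak in both replicates numbered 145 in the clusters. At 10.1 per Mb they were scarcer than elsewhere, where the values were 29.6 on other chromosomes and 47.2 on the rest of chromosome 19. They were also short, with a median of 775 bp against 1225 bp on other chromosomes. The control library of the SMARCB1 lists was denser under cluster peaks (0.733 and 0.691 RPKM, reads per kilobase and M library reads) than under those of other chromosomes (0.461 and 0.454 RPKM). Its part in the low number of SMARCB1 calls was not tested.

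The lower BRD9 number lay almost entirely in peaks off SMARCB1 regions, which made up most cluster peaks in both groups. At SMARCB1 regions the clusters had 98, 118 and 97 BRD9 peaks in GFP-induced cells and 106, 96 and 103 in SMARCB1-induced cells. These values overlapped, with means of 104 and 102. Off SMARCB1 regions there were 2460, 1453 and 2011 against 1161, 701 and 722 peaks, with no overlap and a log2 difference of -1.20. The peaks at SMARCB1 regions were therefore 3.83%, 7.51% and 4.60% of cluster peaks in control cells and 8.37%, 12% and 12.5% in SMARCB1-induced cells. A higher share was not particular to the clusters. Its mean was 2.06 times that of control cells there and 2.01 times on the other chromosomes (33.1% and 66.7%). On the rest of chromosome 19 the means were 45.6% and 65.9%.

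Peaks off SMARCB1 regions were also fewer beyond the clusters. Their log2 difference was -1.06 on the rest of chromosome 19 (849 ± 37.6 against 406 ± 7.55 peaks) and -0.84 on the other chromosomes (23314 ± 7502 against 13019 ± 2902; SD, n = 3 each). Among such peaks alone, the clusters held 7.16%, 7.87% and 7.86% in GFP-induced cells and 6.48%, 5.79% and 5.62% in SMARCB1-induced cells. On this narrower base, chosen after seeing the data, the groups still did not overlap, but the means differed by -1.66 points rather than -3.10.

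On the chromosomes other than 19, BRD9 peaks at SMARCB1 regions were more numerous after induction. They numbered 10963 ± 2487 in control cells, and 25769 ± 732 (SD, n = 3 each) after SMARCB1 induction. Seen from the SMARCB1 side, 66.2%, 77.9% and 66.2% of the 145 cluster regions overlapped BRD9 peaks of GFP-induced cells, and 72.4%, 66.9% and 68.3% overlapped those of SMARCB1-induced cells. The difference of the means was -0.92 points. On the other chromosomes the shares were 8.80 ± 2.00% and 21.8 ± 0.514% (SD, n = 3 each), which is 13.0 points apart. On the rest of chromosome 19 they were closer, 28.8 ± 6.34% and 31.7 ± 0.358% (SD, n = 3 each), and the number of BRD9 peaks at SMARCB1 regions there, 725 ± 188 against 785 ± 1.53 (SD, n = 3 each), overlapped between groups. Most cluster SMARCB1 regions thus had BRD9 peaks in the cells without induced SMARCB1 too.

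**Figure D2:**
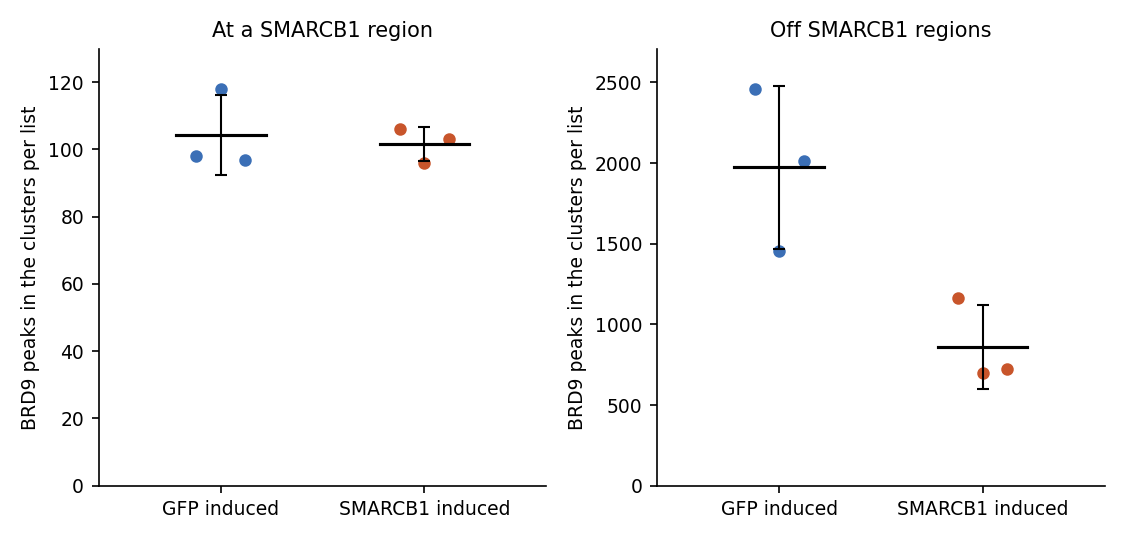
Number of BRD9 peaks in the clusters per list (y axis) at regions called for SMARCB1 in both replicates (left) and off them (right), by induced protein (x axis). Points are lists, lines are means and bars are SD. The values at SMARCB1 regions overlap, between 96 and 118, while off them all 3 lists of SMARCB1-induced cells (701 to 1161) lie below those of control cells (1453 to 2460).

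All 8 clusters had fewer BRD9 peaks on average in SMARCB1-induced cells. In 7 of 8 the groups did not overlap by peak number, and in 4 of 8 by covered length. Control cells had between 1.99 times (cluster 2) and 2.46 times (cluster 7) as many peaks. The densest were clusters 5 and 2. The former had 525, 333 and 466 peaks in GFP-induced cells and 262, 183 and 183 in SMARCB1-induced cells, or 245 and 116 per Mb on average. The latter had 364, 216 and 301 against 187, 121 and 134, or 245 and 123 per Mb. These neighbours in the order did not differ beyond their spread.

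Cluster 3, the longest and next to the centromere, was sparser. It had 625, 272 and 474 against 324, 189 and 173 peaks, or 97.2 and 48.7 per Mb, and was the only cluster whose groups overlapped by peak number. It also had the lowest density of SMARCB1 peaks, 5.32 and 7.87 per Mb. Cluster 7 had 351, 229 and 281 against 153, 96 and 101 peaks, and cluster 8, at the end of the long arm, had 417, 331 and 338 against 212, 128 and 138. In the latter SMARCB1 was more frequent, with 59 and 74 peaks.

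The remaining clusters are small. Cluster 1 had 145, 97 and 116 against 67, 37 and 44 BRD9 peaks. Cluster 6 had 112, 75 and 108 against 54, 34 and 42. Cluster 4, of 0.4 Mb, was the sparsest, with 19, 18 and 24 against 8, 9 and 10 peaks, or 50.8 and 22.5 per Mb. The value in SMARCB1-induced cells lay above the 13.4 per Mb of the other chromosomes and below the 26.6 per Mb of the rest of chromosome 19.

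**Figure D3:**
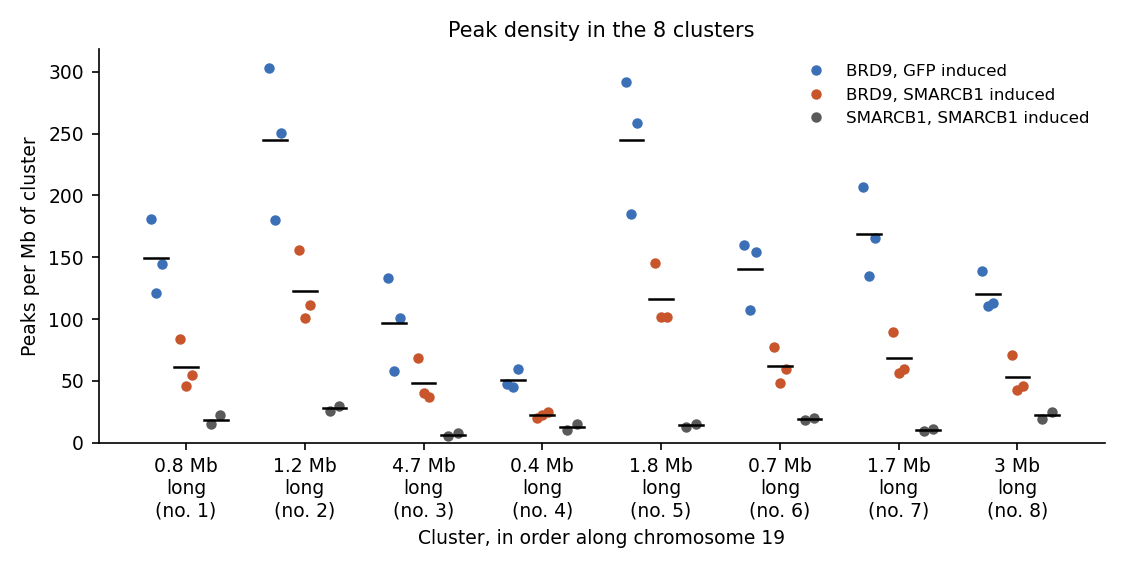
Peaks per Mb (y axis) in the 8 clusters in their order along chromosome 19 (x axis, with lengths). Points are lists and lines are means; no. 1 to no. 8 are clusters 1 to 8. The BRD9 mean of SMARCB1-induced cells is below that of GFP-induced cells in 8 of 8 clusters, and the means of GFP-induced cells run from 50.8 in no. 4 to 245 in no. 2 and no. 5.

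Within clusters both groups of lists had peaks in much the same windows, at different heights. Of 143 windows of 100 kb, 131 had at least 6 BRD9 peaks over the 6 lists and were compared. In 129 of them (98.5%) the mean was lower in SMARCB1-induced cells, against 44.1% of such windows over the genome and 67.1% on the rest of chromosome 19. In 70 (53.4%) every list of SMARCB1-induced cells was below every list of control cells, against 9.62% over the genome. On the rest of chromosome 19 that share was 20.6% (57 of 277). The opposite order occurred in 0 cluster windows, against 26.6% over the genome and 5.05% on the rest of chromosome 19. The count was made on the values that selected the clusters, so it is a description.

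The window with most peaks began 500 kb into cluster 5 and held a mean of 39.3 peaks in GFP-induced and 15.3 in SMARCB1-induced cells. A window 200 kb into cluster 7 had 38.7 and 18, and one 900 kb into cluster 8 had 37.0 and 17.3. Peaks were not spread evenly. In cluster 3 the windows from 500 to 900 kb past its start had means of at most 1 peak, while the window at 200 kb had 26.3 and 10.3.

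SMARCB1 had no peak in 49 of the 143 cluster windows (34.3%), close to the 34.1% of all windows, while the share was 19.2% on the rest of chromosome 19. Of the 49, 30 were among the 47 windows of cluster 3. The windows with most SMARCB1 peaks were the first of clusters 8, 3 and 2, with means of 12, 11.5 and 11. BRD9 had 6.67, 8.33 and 3.33 peaks there in GFP-induced cells.

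**Figure D4:**
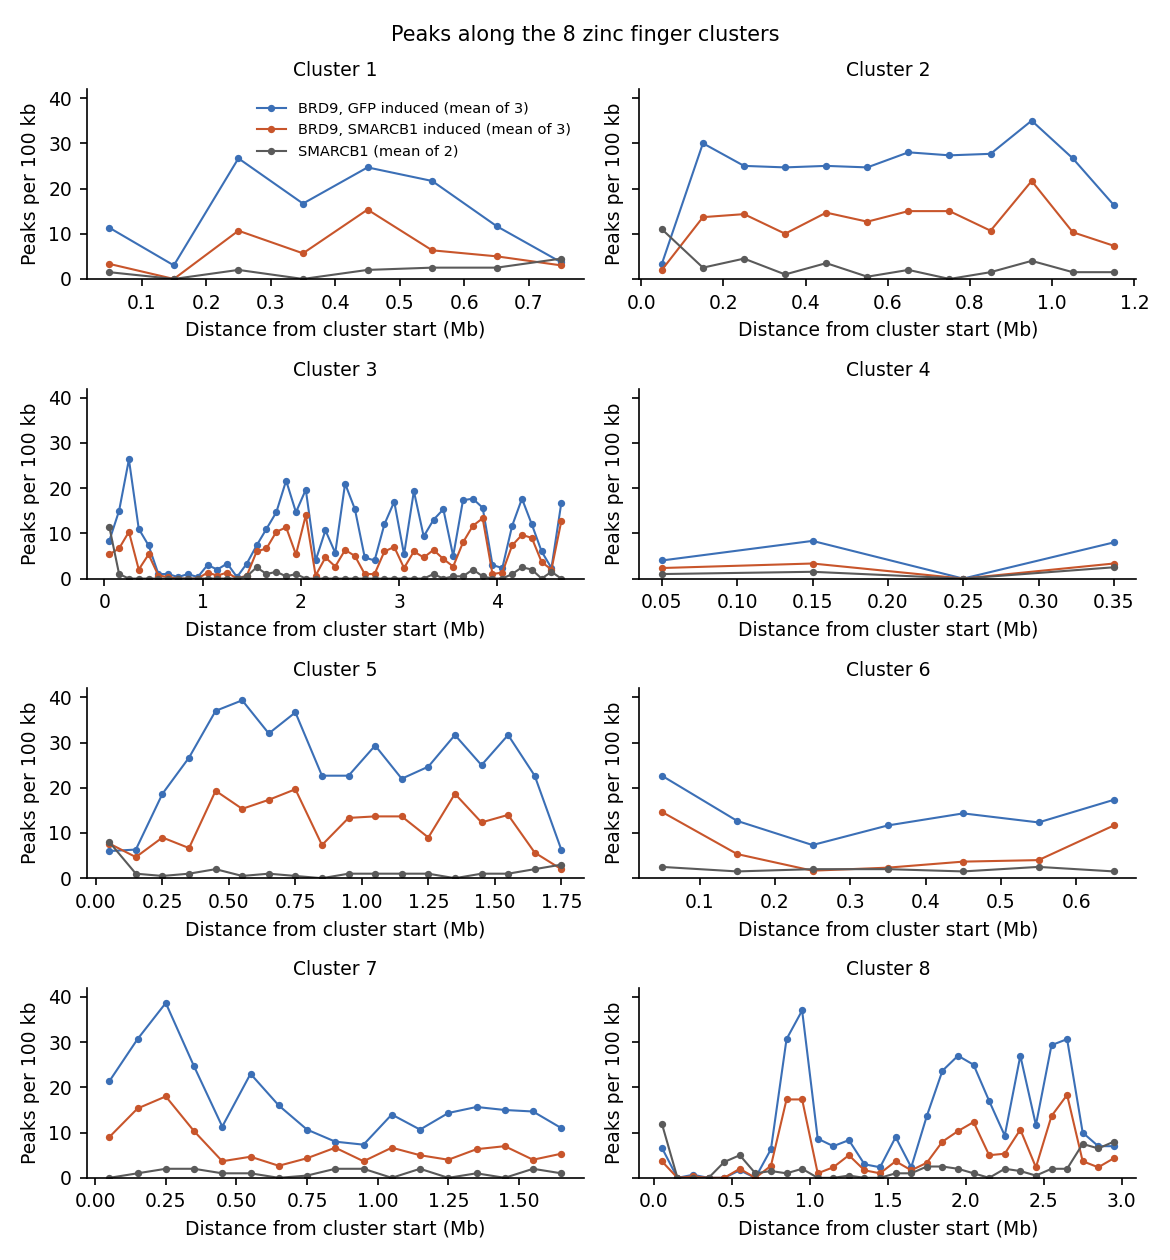
Mean number of peaks per 100 kb window (y axis) against distance from the start of each cluster (x axis, Mb), for BRD9 in GFP-induced cells, BRD9 in SMARCB1-induced cells (3 lists each) and SMARCB1 (2 lists). Clusters are numbered along the chromosome. The BRD9 line of SMARCB1-induced cells runs below the control line in nearly all windows, and SMARCB1 is highest at the first window of clusters 2, 3 and 8.

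The cluster limits marked a step in both proteins, in opposite directions. In the 200 kb inside the 16 limits, BRD9 had 128, 103 and 118 peaks per Mb in GFP-induced cells, and in the 200 kb outside 40.4, 46.0 and 40.1. In SMARCB1-induced cells the values were 70.0, 46.3 and 52.5 inside and between 31.1 and 36.8 outside. The step was therefore smaller but present in all 3 lists. SMARCB1 had 25.9 and 34.4 peaks per Mb inside and 51.3 and 67.2 outside.

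At a coarser scale, 13 windows of 1 Mb lay wholly or mostly in clusters, of 3049 in all. Some, such as that from 44 to 45 Mb, reach past a cluster limit, so their counts include peaks outside it. They had a median of 119 BRD9 peaks in GFP-induced and 54.7 in SMARCB1-induced cells, against 4 and 7 over all windows. The window from 37 to 38 Mb had 298 and 147, which placed it at rank 2 and rank 3 of the genome. It also had the largest difference towards fewer peaks, and 6 of the 10 largest such differences were in these 13 windows.

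Over all cluster peaks, the medians of height and width overlapped between the groups. Median density was 3.23, 2.93 and 3.36 RPKM in GFP-induced cells and 2.93, 3.20 and 2.85 RPKM in SMARCB1-induced cells. The difference of -0.18 RPKM was within the spread (exact permutation, two-sided: p = 0.3, and 0.5 after adjustment over 5 tests; the smallest p possible is 0.1). Median width was 675, 500 and 627 bp against 707, 543 and 525 bp, a difference of -9 bp (exact permutation test, p = 1, adjusted p = 1) whose sign turned with 1 list left out. Peaks of 5 kb or wider numbered 14, 0 and 4 in GFP-induced cells and 0 in each list of SMARCB1-induced cells. On the other chromosomes they numbered 227, 84 and 231 against 137, 95 and 126, with GFP replicate 2 lowest there too. Since a list holds called peaks alone, the density of peaks that drop below the calling threshold does not enter these medians.

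The ranks by the authors' score, the negative log10 of the false discovery rate, gave a further view. In GFP-induced cells the median cluster peak stood 38.9%, 49.8% and 40.9% down the list from the top, and in SMARCB1-induced cells 49.6%, 64.6% and 66.7%. Cluster peaks thus ranked lower in SMARCB1 replicates 2 and 3 than in any list of control cells, while replicate 1 was level with GFP replicate 2. On the other chromosomes the medians were 55.6%, 49.8% and 56.9% in GFP-induced cells and 49.6%, 51.0% and 53.1% in SMARCB1-induced cells. Peaks of equal score share a rank, and in GFP replicate 2 and SMARCB1 replicate 1 the cluster median equalled that of the other chromosomes. The BRD9 control library was sparse under cluster peaks, at 0.166 to 0.203 RPKM in GFP-induced and 0.187 to 0.231 RPKM in SMARCB1-induced cells. Under peaks of other chromosomes its medians were 0.288 to 0.621 and 0.672 to 0.822 RPKM.

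Region by region, many calls were not repeated over lists, in the clusters and beyond. Of the 3480 merged BRD9 regions in the clusters, 1848 (53.1%) had a peak in 1 list alone. That share was 62.9% of all merged regions and 52.7% on the rest of chromosome 19. A peak in lists of GFP-induced cells only was found for 2062 (59.3%), against 42.8% of all merged regions. On the rest of chromosome 19 that share was 48.4%. Regions with a peak in lists of SMARCB1-induced cells only numbered 302 (8.68%), against 46070 of all 119939. They were 20.4% of regions on the rest of chromosome 19. Lost regions (3 of 3 control lists, 0 of 3 lists of SMARCB1-induced cells) numbered 106 (3.05%), beside a background of 1.04% of all merged regions. On the rest of chromosome 19 the lost share was 2.35%, so it too was above that background. Gained regions, the reverse, numbered 13 (0.374%), beside a background of 6.85% and 2.99% on the rest of chromosome 19. Both cluster shares come from the contrast that selected the clusters.

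The lost count depended on how many lists had to agree. With calls in the remaining lists enough, it was 177 without GFP replicate 1, 350 without GFP replicate 2, 215 without GFP replicate 3 and 207 without SMARCB1 replicate 1. It was 131 and 129 without SMARCB1 replicates 2 and 3. Leaving a list out loosens the rule, so these counts cannot show whether the result rests on any 1 list. The gained count was 22 without SMARCB1 replicate 3. Of the 106 lost regions 1 (0.943%) overlapped a SMARCB1 region, against 28.4% of all lost regions. Of the 13 gained regions 2 (15.4%) did, against 95.9% of all gained regions. By cluster, the lost share of regions was highest in cluster 8 (31 regions, 5.46%), cluster 4 (2 regions, 5.41%) and cluster 1 (9 regions, 4.97%), and lowest in cluster 6 (2 regions, 1.09%).

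Calls repeated within a group were mostly found in the other group as well. Of 674 regions found in every control list, 568 (84.3%) were also called at least once after SMARCB1 induction, beside 86.8% of all such regions in the genome. Of 336 regions found in every list of SMARCB1-induced cells, 323 (96.1%) were also called at least once in control cells, against 51.8% over the genome. On the rest of chromosome 19 that share was 82.2% (412 of 501), so much of the gap to the genome was shared there. BRD9 regions repeated in SMARCB1-induced cells were thus nearly all called in control cells too.

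**Figure D5:**
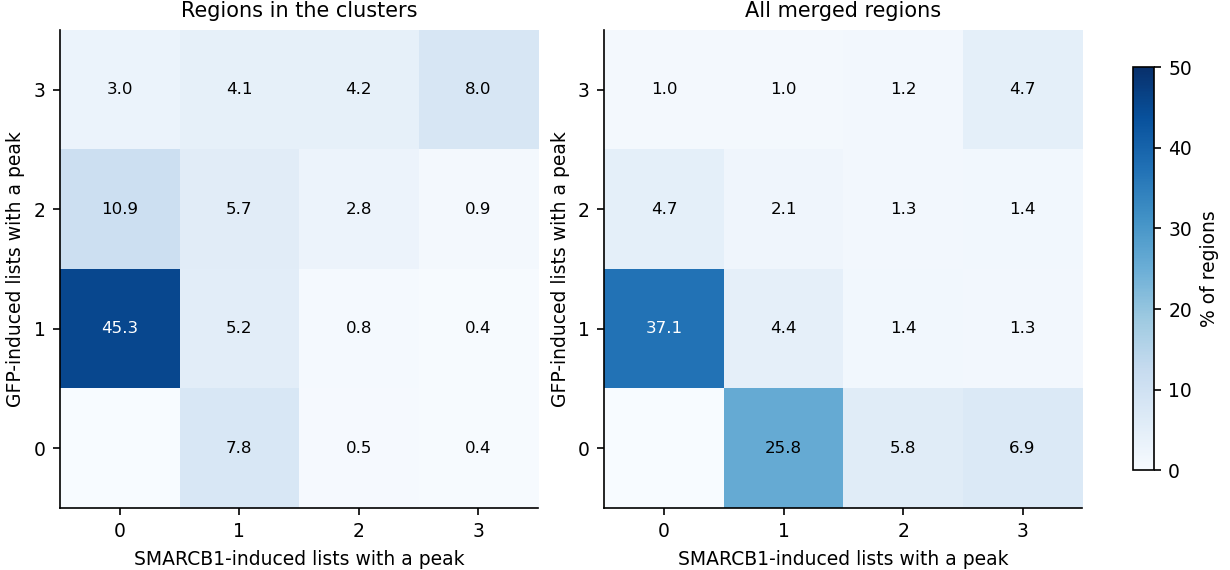
Percent of merged BRD9 regions by the number of lists with a peak in SMARCB1-induced cells (x axis, 0 to 3) and GFP-induced cells (y axis, 0 to 3), in the clusters (left) and over all regions (right). Colour and printed values give the percent. Along the bottom row, with no GFP-induced list, the clusters hold 7.8%, 0.5% and 0.4%, against 25.8%, 5.8% and 6.9% of all regions.

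Of the lost regions, the 3 with the highest mean rank by score were chr19:52810176-52811276, chr19:57615251-57615901 and chr19:53383098-53385126. The first had 3.55, 4.06 and 3.92 RPKM in control cells, and the control library averaged 0.275 RPKM there. The others averaged 3.8 ± 0.347 and 3.17 ± 0.216 RPKM (SD, n = 3). None of these 3 overlapped a SMARCB1 region. The gained regions with the highest mean rank were chr19:53069326-53070651, chr19:44966801-44967683 and chr19:11877526-11878360. They had 4.11 ± 1.23, 4.06 ± 1.17 and 3.53 ± 0.233 RPKM in SMARCB1-induced cells (SD, n = 3), and none overlapped a SMARCB1 region either. Lost and gained regions of similar height therefore lay within the same cluster, cluster 7.

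Constant regions, called in 6 of 6 lists, numbered 278 in the clusters (7.99%, against 4.67% of all regions). On the rest of chromosome 19 the share was higher still, at 10.3% (306 of 2978). Their median width of 2701 bp was near the 2423 bp of all constant regions. Of them, 69 (24.8%) overlapped a SMARCB1 region, against 59.6% of all constant regions. The 5 with the highest mean rank were chr19:37661801-37665151, chr19:12550376-12556307, chr19:37808130-37810676, chr19:12475984-12477901 and chr19:58089326-58090951. The first had 3.79, 6.71 and 5.37 RPKM in GFP-induced cells and 5.45, 6.38 and 3.98 RPKM in SMARCB1-induced cells, and overlapped a SMARCB1 region. Its values overlapped between groups. The last, off SMARCB1, had 5.19, 9.46 and 6.77 against 3.89, 5.92 and 4.03 RPKM, where the groups also overlapped.

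Constant regions at and off SMARCB1 regions differed in how their extent compared between the groups. In all 278, peaks covered a median of 2297, 1271 and 1859 bp per region in GFP-induced cells and 1563, 968 and 948 bp in SMARCB1-induced cells. In 50 (18%) every list of SMARCB1-induced cells covered less than every list of control cells, beside a background of 13.2% of the 5086 constant regions on the numbered chromosomes and X. The mean was lower in 220, and the median log2 difference was -0.47, against -0.044 on other chromosomes. Off SMARCB1 (209 regions) that median was -0.59, with a lower mean in 186. At SMARCB1 (69 regions) it was 0.015, with a lower mean in 34. As with peak number, the lower values were mostly those of regions off SMARCB1. The merged regions off SMARCB1 were also wider, with a median of 3175 bp against 1535 bp at SMARCB1. The part of width in this contrast was not tested, and constant regions outside the clusters were not split in this way. Read density at constant regions was lower too. In the clusters its median was 3.91, 3.42 and 3.77 RPKM in GFP-induced and 3.36, 3.40 and 2.97 RPKM in SMARCB1-induced cells. The mean was lower in 250 of 278 regions (89.9%), with a median log2 difference of -0.22, against 75.3% and -0.16 on the other chromosomes.

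Of the SMARCB1 regions in the clusters, the 3 with the highest mean rank were chr19:19700626-19702726 (2.00 ± 0.071 RPKM), chr19:11639126-11640417 (1.98 ± 0.019 RPKM) and chr19:56110126-56111910 (1.75 ± 0.238 RPKM; SD, n = 2). All lay in the first 100 kb of their cluster. The first held a BRD9 peak in 0 of 3 lists of GFP-induced and 2 of 3 lists of SMARCB1-induced cells, and each of the others in 6 of 6.

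Spacing within the clusters mirrored the counts. Neighbouring BRD9 peaks lay a median of 2453, 3441 and 2550 bp apart in GFP-induced cells and 3915, 7974 and 6383 bp in SMARCB1-induced cells. The median distance from a BRD9 peak to the nearest SMARCB1 region was 44.0, 34.6 and 40.9 kb in control cells and between 34.8 and 41.6 kb in SMARCB1-induced cells, so the groups overlapped. Pairs of lists within GFP-induced cells had a mean Jaccard index (base pairs covered by both lists over those covered by either) of 0.302 in the clusters, pairs within SMARCB1-induced cells 0.283 and pairs between groups 0.229. The pairs between groups ran from 0.160 to 0.326. Unequal covered lengths limit this index, so the lower mean between groups does not show different positions. SMARCB1 replicates 2 and 3 had 0.161 and 0.160 with GFP replicate 1, which held 74.3% and 75.6% of their base pairs. The longer SMARCB1 replicate 1 had 0.297, 0.283 and 0.326 with GFP replicates 1, 2 and 3.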

How the data were processed

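CUT&RUN libraries of BRD9 (3 per group) and SMARCB1 (2) were used as peak lists called per sample. Each deposited list gives, per the file headers, the raw read counts of every peak in the sample and its control. It also gives both as RPKM and the authors' −log10 false discovery rate, which starts at 3.98 to 4.00. All BRD9 lists share 1 control of 23.1 M reads and both SMARCB1 lists another of 49.6 M. The submitters' processing notes name hg19 and BWA 0.7.12-r1039. The peak caller and the BRD9 control are not given in the sources used here. Only called peaks are listed, so signal over common windows was not analysed.

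Overlap meant at least 1 bp. SMARCB1 regions were unions of overlapping SMARCB1 peaks that held both replicates. Group means of 3 lists each were compared by exact permutation, two-sided, with Benjamini-Hochberg adjustment over 5 tests. Those on overlap with SMARCB1 or against other chromosomes are given as descriptions only. Median density in the clusters minus that of the other chromosomes averaged -0.084 RPKM in GFP-induced and -0.191 RPKM in SMARCB1-induced cells, with overlapping lists. The share at SMARCB1 regions minus that of the other chromosomes averaged -27.8 and -55.7 points. The clusters, measures and lists were chosen with earlier results of these data known. All 8 clusters were named, and regions by the mean rank of the score in the lists holding them: the first 3 gained, 3 lost, 5 constant and 3 SMARCB1 regions. Alternatives were stricter scores, equal list lengths, midpoints, shortened clusters, low control density, wider peaks, each cluster or list left out, other SMARCB1 references, merging within 500 bp, fewer lists required and a replicate block. The code was tested on simulated lists, where 400 of 400 planted regions were recovered. Python 3.11.15, numpy 2.4.6 and pandas 2.3.3 were used, and matplotlib 3.10.9 for figures.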

Additional observations from a re-analysis of the deposited data

How the results depend on the processing

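Of 177 recomputed values, 19 moved, 6 reversed and 152 did neither. A difference in peak number, covered length or share of the list's peaks counted as moved beyond 1 SD between lists, and a number of regions beyond 1.5 times. Density, width and the share at SMARCB1 regions were judged by sign alone, so they could reverse but not count as moved. The difference in the share at SMARCB1 regions was 5.65 points and ran from 4.29 to 8.75 over the alternatives, with an SD between lists of 2.11. On the other chromosomes the same difference was 33.5 points. The log2 difference in peak number stayed between -1.53 and -0.93 and that in covered length between -1.67 and -0.90. Taking only the higher-scoring peaks of every list gave -1.53 for peak number, -3.88 points for the share, 101.8 bp for width and 6 gained regions. Peaks of 500 bp or wider gave -4.33 points and 60 lost regions. The share difference was -2.48, -2.45 and -2.53 points without clusters 3, 5 and 8, which remove peaks by construction, and -1.66 points among peaks off SMARCB1. Width had no stable direction: 20.5 bp with equal numbers of top peaks and from -66.7 to 28.2 bp with 1 list left out. Gained regions numbered 8 without cluster 7, 31 in at least 2 of 3 lists and 15 to 22 with 1 list left out; lost regions numbered 485 in at least 2 lists and 129 to 350 with 1 list left out. Otherwise the cause was not tested. Same-numbered lists hardly deviated together over cluster regions (correlations -0.014, 0.0058 and -0.0084), and the numbers were not taken as pairs. These correlations cannot show whether same-numbered lists share a batch. Total peak numbers had the same order in both groups. They were 45673, 35252 and 38825 in GFP-induced and 46448, 39949 and 42285 in SMARCB1-induced cells. With a replicate block there were 44 gained and 629 lost regions, and the density difference of -0.18 RPKM had p = 0.5 (exact sign-flip permutation test). Over the 3 numbers the log2 difference in peak number was -1.01, -0.98 and -1.35, and that in covered length -1.07, -0.90 and -1.71. At 18 to 25 reads per median peak, a region without a call is not shown to lack BRD9.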
